A study of Mus musculus with 12 samples.

Results

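The response of Lpin1-/- liver to a meal was followed by RNA sequencing in 6 of the 12 libraries of the series. These were 3 livers of Lpin1-/- mice fasted for 16 hours and 3 livers of Lpin1-/- mice that were fasted for 16 hours and then had chow for 5 hours, all chosen by their labels. The Lpin1-/- mice carry the fatty liver dystrophy (fld) mutation, which removes lipin 1 from the whole body, on the BALB/cByJ background, and were males of 2 to 8 months. The other 6 libraries came from Lpin1+/+ littermates in the same 2 states and served as a reference. Fasting was done in single cages at 18 to 20 °C. The fasted livers were taken at 0900 and the refed livers at 1400, so feeding and hour of the day cannot be told apart in this comparison. The labels number the 3 libraries of a group as replicates, and p-values measure the spread between these libraries.

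Lipin 1 is a phosphatidic acid phosphatase that makes diacylglycerol for triglyceride and phospholipid synthesis, and in the nucleus it acts with transcription factors as a coregulator of fasting genes. In the fasted liver, glucagon, glucocorticoids and low insulin keep FoxO, PPARα and CREB target genes active. A meal raises insulin and glucose, which turn on glycolysis, lipid synthesis and protein production and silence the fasting genes. The question addressed was how far this switch occurs, and in which genes, when lipin 1 is absent.

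Expression was deposited as RPKM, read counts scaled to transcript length and to library size, for 22456 genes. The mutated gene was low in all 6 mutant libraries. Lpin1 (chr12:16535669-16610966, GRCm38) measured 0.0597, 0.0566 and 0.0368 RPKM in the fasted and 0.00573, 0.0238 and 0.00962 RPKM in the refed Lpin1-/- libraries, against 0.726 to 2.92 RPKM in 5 Lpin1+/+ libraries and 21.96 RPKM in fasted Lpin1+/+ replicate 1, which also held the highest Lpin2 of its group (46.4 RPKM, against 10.2 and 13.6 RPKM). Relative depth, estimated from the steps between low values, was 1, 1.06 and 1.05 in the fasted and 1.23, 1.18 and 1.1 in the refed Lpin1-/- libraries. Every refed library was thus deeper than every fasted one, and the part of depth in the results was not tested. The hepatocyte markers summed to 87200 to 103000 RPKM in the fasted and 88200 to 93200 RPKM in the refed Lpin1-/- group. Fasted Lpin1-/- replicate 1 and refed Lpin1+/+ replicate 2 stood apart by their immune genes. Macrophage markers summed to 1670 RPKM in the former, to 422 and 626 RPKM in the other fasted Lpin1-/- libraries, and to 139 to 330 RPKM in the refed Lpin1-/- libraries. All 12 macrophage markers had lower values after refeeding, as had 3836 of all 11507 genes tested. Of the macrophage markers 1, Clec4f, passed the test. Fewer cells of a type and less RNA per cell cannot be told apart in bulk liver, and the part of these cells in the results was not tested.

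Refeeding altered a broad share of the transcriptome of Lpin1-/- liver, and most of the change was upward. Of 11507 genes tested on log2(RPKM + 1) with limma, 2382 passed an adjusted p of 0.05, which is 20.7% of the genes tested. Of these, 2046 (17.8%) were higher and 336 (2.92%) were lower in refed liver, so that 85.9% of the calls were rises. The direction depended on how the libraries were scaled. Over all genes tested the median of the log2 fold changes was 0.25 as deposited and 0.06 after each library was rescaled by its median ratio to a common reference. On rescaled values 1822 genes were called, 1256 higher (10.9%) and 566 lower (4.92%), so that 68.9% were rises, and 1582 genes were called in the same direction on both scales. Without the 2 libraries of high immune genes 1389 genes were called. The call held whichever of the 12 libraries was left out for 884 of the rises and 136 of the falls. The count fell to 1122 without refed Lpin1-/- replicate 2, to 1328 without fasted Lpin1-/- replicate 1, to 1427 without refed Lpin1-/- replicate 3 and to 1586 without fasted Lpin1-/- replicate 2, and it rose to 3108 without fasted Lpin1+/+ replicate 1. The 3 refed and the 3 fasted values did not overlap for 2369 of the 2382 genes called, which follows largely from the test on these same values. Of all genes tested 46.8% did not overlap on deposited values, 4318 higher and 1066 lower in refed liver. Chance would put 10% of genes there for 3 against 3, if the libraries had no common offset. The median ratios used for rescaling did not overlap either, at 0.828, 0.943 and 0.88 in fasted and 1.08, 1.07 and 0.997 in refed Lpin1-/- libraries. The part of this offset in the 46.8% was not tested. Changes of at least 1 log2 unit were found for 974 rises and 196 falls, and changes of at least 2 log2 units for 66 rises and 47 falls. All fold changes below are on the log2(RPKM + 1) scale, which understates the change of low genes.

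Igfbp1 and Ddit4 gave the largest falls. Igfbp1 encodes a liver binding protein for insulin-like growth factors that insulin silences. It measured 961, 1140 and 6960 RPKM in fasted Lpin1-/- liver and 364, 42.6 and 78.5 RPKM after refeeding. The groups did not overlap, and the log2 fold change was -4.19 ± 1.02 (SE, adjusted p = 0.0156), the largest fall of any gene that passed the rule. This call was lost without refed Lpin1-/- replicate 2 (adjusted p = 0.0703) or replicate 3 (adjusted p = 0.0532). Ddit4, an inhibitor of mTORC1 signalling that is induced by fasting and stress, measured 247, 386 and 644 RPKM when fasted and 65.1, 38.1 and 7.89 RPKM when refed, a log2 fold change of -3.80 ± 0.86 (SE, adjusted p = 0.0111). Sesn1, a sestrin that also restrains mTORC1, fell from 23.6, 24.5 and 48.3 RPKM to 3.13, 1.82 and 1.75 RPKM (log2 fold change -3.31 ± 0.335, adjusted p = 0.00035). Pdk4, the kinase that blocks pyruvate entry into the mitochondrial citrate cycle, fell from 7.58, 21.6 and 17.4 RPKM to 3.77, 1.98 and 2.06 RPKM (log2 fold change -2.12 ± 0.36, adjusted p = 0.00302). In each of these 4 genes every fasted library lay above every refed library. Such lack of overlap was a condition for naming the largest falls. The plot of single libraries shows Igfbp1, Ddit4 and Pdk4 beside the Lpin1+/+ groups.

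Among the 21 genes of the insulin-suppressed and FoxO list, 6 fell, 1 rose (Mttp, which loads lipid onto lipoproteins, log2 fold change 0.96, and adjusted p of up to 0.107 without fasted Lpin1-/- replicate 1 or refed Lpin1-/- replicate 2 or 3) and 14 did not pass the test. Calls made up 33.3% of the list, against 20.7% of all genes tested. The median log2 fold change of the list was -0.70 as deposited and -0.92 after rescaling, against -0.22 in Lpin1+/+ liver. The fallers were Igfbp1, Foxo3, Sesn1, Pdk4, Cited2 and Ddit4, and 4 of the 6 kept their call whichever library was left out. The classical gluconeogenic enzymes were not among them. Pck1, which makes phosphoenolpyruvate for glucose synthesis, measured 461, 754 and 1210 RPKM when fasted and 1090, 149 and 483 RPKM when refed, with overlapping groups (log2 fold change -0.80 ± 0.757, adjusted p = 0.468). G6pc, the last enzyme of glucose release, measured 135, 134 and 629 RPKM and 88.2, 132 and 166 RPKM (adjusted p = 0.403). Refed replicate 1 held the highest refed value of both Igfbp1 and Pck1. Of 16 glucocorticoid-responsive genes (25% called, against 20.7% of all genes) 4 fell and none rose. These were Sgk1, Mt2, Sds and Lpin2, and every one of these calls was lost without at least 1 library, with adjusted p of up to 0.129 for Sgk1 (without refed Lpin1-/- replicate 3) and for Mt2 (without refed Lpin1-/- replicate 2). Fkbp5 and Tsc22d3, sensitive readouts of the glucocorticoid receptor, had overlapping groups (adjusted p = 0.437 and 0.42).

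**Figure D1:**
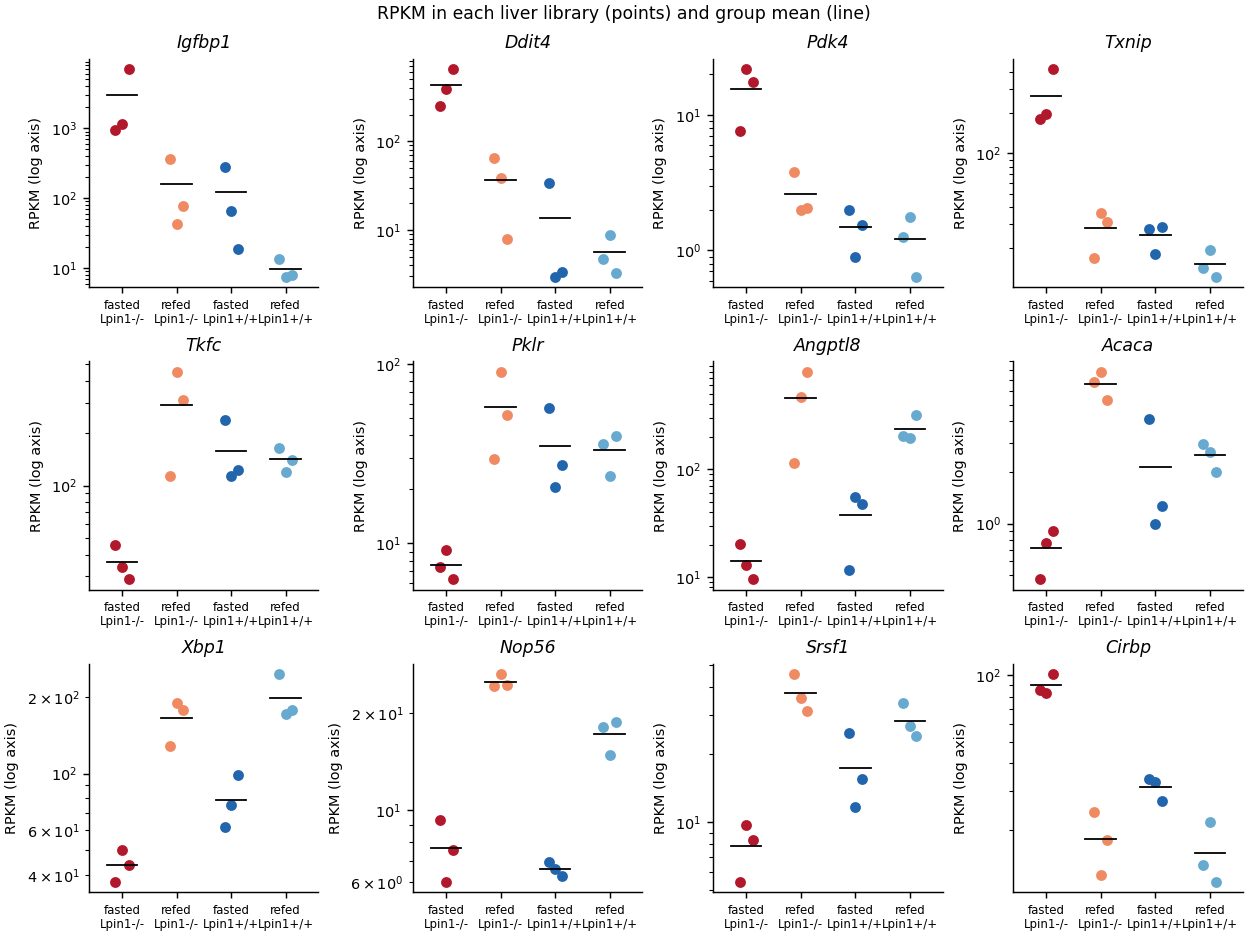
RPKM on a log axis for 12 genes in the 4 groups, with 1 point per library and a line at the group mean. The 3 fasted Lpin1-/- points of Igfbp1, Ddit4, Pdk4, Txnip and Cirbp lie above the 3 refed Lpin1-/- points, and those of the other 7 genes lie below them.

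Several glucose-handling genes rose. Pklr, the liver pyruvate kinase, measured 7.41, 9.14 and 6.30 RPKM when fasted and 29.7, 90.5 and 51.7 RPKM when refed (log2 fold change 2.63 ± 0.418, adjusted p = 0.00214). Tkfc, the triokinase of fructose metabolism, rose from 45.5, 33.8 and 28.8 RPKM to 114, 452 and 310 RPKM (log2 fold change 2.80 ± 0.445, adjusted p = 0.00217). Of 22 genes of glucose uptake and glycolysis, 9 rose, 1 fell and 12 did not pass (45.5% called against 20.7% of all genes tested). Aldoa, Tpi1, Pgam1, Eno1 and Gapdh, enzymes of the glycolytic chain, and Mlxipl, which encodes the glucose-sensing factor ChREBP, were among the other rises. The list's median was 0.84 (0.60 after rescaling), against 0.09 in Lpin1+/+ liver, and 7 of the 9 rises kept their call with each library left out in turn. Mlxipl and Gapdh were not among the 7. The call of Gapdh was lost without any 1 of 9 libraries (adjusted p of up to 0.154, without refed Lpin1-/- replicate 3) and on rescaled values (adjusted p = 0.391), and held without refed Lpin1-/- replicate 1 and fasted Lpin1+/+ replicates 1 and 2. The call of Mlxipl was lost without fasted Lpin1-/- replicate 1 (adjusted p = 0.0575) and without refed Lpin1-/- replicate 2 (adjusted p = 0.0596).

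The fall in the list was Txnip, whose arrestin-like product holds back glucose uptake and which ChREBP and FoxO factors can both induce. It measured 181, 196 and 418 RPKM when fasted and 16.9, 36.0 and 31.2 RPKM when refed, a log2 fold change of -3.15 ± 0.359 (SE, adjusted p = 0.000583), while in Lpin1+/+ liver it lay at 18.1 to 28.7 RPKM when fasted and 12.2 to 19.4 RPKM when refed. Promoters of this gene, of Pklr and of Igfbp1 are shown because these 3 genes hold textbook elements of the glucose and insulin response yet moved in opposite directions. Given are the 250 bases before the RefSeq start site (GRCm38.p6), 5′ to 3′ on the strand of the gene. Capitals mark matches, searched on both strands, to the consensus carbohydrate response element, to CAAAACA, an insulin response element of the FoxO type, and in Txnip also to the FoxO consensus GTAAACA.
Igfbp1 promoter, chr11:7197537-7197786, + strand: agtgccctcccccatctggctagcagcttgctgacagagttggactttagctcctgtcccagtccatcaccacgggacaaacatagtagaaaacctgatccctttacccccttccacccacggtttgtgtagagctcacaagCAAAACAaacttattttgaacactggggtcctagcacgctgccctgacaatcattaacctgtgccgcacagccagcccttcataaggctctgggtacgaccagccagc
Txnip promoter, chr3:96557707-96557956, + strand: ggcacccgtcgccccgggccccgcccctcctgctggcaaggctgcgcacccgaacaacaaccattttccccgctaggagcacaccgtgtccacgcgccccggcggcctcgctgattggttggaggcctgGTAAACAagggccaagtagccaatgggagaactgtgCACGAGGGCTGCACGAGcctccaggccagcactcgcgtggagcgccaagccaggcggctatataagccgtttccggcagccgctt
Pklr promoter, chr3:89136373-89136622, + strand: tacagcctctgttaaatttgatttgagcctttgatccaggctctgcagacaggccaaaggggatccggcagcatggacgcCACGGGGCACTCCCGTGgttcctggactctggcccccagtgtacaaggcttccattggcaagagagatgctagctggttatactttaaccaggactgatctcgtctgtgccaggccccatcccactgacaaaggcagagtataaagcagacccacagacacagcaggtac
The carbohydrate element stands at -85 to -69 in Txnip and at -170 to -154 in Pklr, where it matches on both strands. It is present in 0.28% of 32851 RefSeq promoters. CAAAACA stands at -108 to -102 in Igfbp1 and is found in 5.56% of promoters, and GTAAACA at -121 to -115 in Txnip and in 3.17% of promoters. A match describes these letters only.

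Of 15 glycogen genes tested 3 rose and 1 fell, which is 26.7% called against 20.7% of all genes. The fall, Ppp1r3g, a glycogen-targeting subunit of protein phosphatase 1, went from 34.9, 47.7 and 149 RPKM to 6.88, 4.41 and 3.34 RPKM (log2 fold change -3.49 ± 0.436, adjusted p = 0.000775). The rises of Ppp1r3b and Gbe1 were lost without fasted Lpin1-/- replicate 1 (adjusted p = 0.146 and 0.11), without any 1 of the refed Lpin1-/- libraries, without fasted Lpin1-/- replicate 2 or refed Lpin1+/+ replicate 1 for Ppp1r3b and fasted Lpin1-/- replicate 3 for Gbe1, and on rescaled values (adjusted p = 0.0654 and 0.0617). Gys2, the liver glycogen synthase, and Pygl, the phosphorylase, did not pass (adjusted p = 0.756 and 0.0912).

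Lipid synthesis responded in parts, and 26.3% of the de novo lipogenesis genes were called, against 20.7% of all genes. Acaca, acetyl-CoA carboxylase 1, which makes malonyl-CoA, measured 0.469, 0.763 and 0.908 RPKM when fasted and 6.84, 7.82 and 5.32 RPKM when refed (log2 fold change 2.16 ± 0.314, adjusted p = 0.00146). Mid1ip1, an activator of that enzyme, rose from 4.89, 8.39 and 5.34 RPKM to 20.5, 75.1 and 54.5 RPKM (log2 fold change 2.67 ± 0.417, adjusted p = 0.00202). Of 19 genes of de novo lipogenesis 4 rose and 1 fell (Elovl5, log2 fold change -0.81, and adjusted p of up to 0.0839 without fasted Lpin1-/- replicate 1 or 2 or refed Lpin1-/- replicate 2 or 3), with a list median of 0.21 (0.05 after rescaling) and 0.51 in Lpin1+/+ liver. The rises of Fasn and Elovl6 were lost without refed Lpin1-/- replicate 2 (adjusted p = 0.155 and 0.126), without fasted Lpin1-/- replicate 1 or 3 or refed Lpin1-/- replicate 3, for Fasn also without refed Lpin1-/- replicate 1, fasted Lpin1+/+ replicate 3 or refed Lpin1+/+ replicate 1 or 3, and on rescaled values (adjusted p = 0.076 and 0.0648). Srebf1, which encodes the insulin-driven factor SREBP-1, did not pass the test. It measured 29.5, 48.2 and 11.4 RPKM when fasted and 16.2, 26.9 and 23.4 RPKM when refed (log2 fold change -0.23 ± 0.488, adjusted p = 0.766). Thrsp, a lipogenic gene that SREBP-1 and ChREBP drive, measured 457, 565 and 229 RPKM and 277, 429 and 416 RPKM (log2 fold change -0.09 ± 0.585, adjusted p = 0.928). In Lpin1+/+ liver the log2 fold change of Thrsp was 2.68 (adjusted p = 0.045), and the difference between the genotypes did not pass (adjusted p = 0.122). In the list of lipins and triglyceride synthesis 3 of 16 genes rose and 1 fell (25% called). Agpat1, an acyltransferase that makes phosphatidic acid, rose from 0.671, 1.71 and 1.71 RPKM to 6.77, 7.76 and 6.89 RPKM (log2 fold change 1.82 ± 0.251, adjusted p = 0.00111). Lpin2, the second phosphatase of the family in liver, measured 29.5, 46.1 and 45.0 RPKM when fasted and 16.4, 10.8 and 9.98 RPKM when refed (log2 fold change -1.62 ± 0.453, adjusted p = 0.0272). The fall of Lpin2 was lost without fasted Lpin1-/- replicate 2 or 3 (adjusted p = 0.0812 and 0.0662) and without refed Lpin1-/- replicate 2 or 3 (adjusted p = 0.0898 and 0.0848). Lpin3 lay at 1.498 to 2.44 RPKM in all 6 libraries.

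Among the pathway lists, which leave out the cell type markers, cholesterol synthesis had the widest gap between the median responses of the genotypes. SREBP-2 turns on the pathway from acetyl-CoA to cholesterol, and INSIG1 holds SREBPs in the endoplasmic reticulum. None of 27 genes of the list rose in Lpin1-/- liver and 3 fell (11.1% called, against 20.7% of all genes). The median was -0.15 as deposited and -0.38 after rescaling. In Lpin1+/+ liver 12 of the 27 rose and the median was 1.52. The difference of the responses itself passed the test for 8 of the 27 genes, all lower in Lpin1-/-, where 147 of 11507 genes (1.28%) passed and 56 (0.487%) were lower in Lpin1-/-. Insig1 measured 172, 112 and 56.4 RPKM in fasted and 9.13, 10.1 and 11.7 RPKM in refed Lpin1-/- liver (log2 fold change -3.21 ± 0.375, adjusted p = 0.000664). In Lpin1+/+ liver it measured 20.2, 18.2 and 36.0 RPKM when fasted and 71.0, 58.0 and 98.2 RPKM when refed, a log2 fold change of 1.60 that did not pass (adjusted p = 0.062). Fasted values were all above refed values in Lpin1-/- liver and all below them in Lpin1+/+ liver, and the difference of the responses was -4.81 ± 0.531 log2 units (adjusted p = 0.00332). Msmo1, a demethylating enzyme of the late pathway, measured 58.5, 19.6 and 18.3 RPKM and then 8.39, 7.83 and 9.65 RPKM (log2 fold change -1.58 ± 0.435, adjusted p = 0.0259). This call was lost without fasted Lpin1-/- replicate 1 (adjusted p = 0.082), without refed Lpin1-/- replicate 1 (0.0653), replicate 2 (0.0843) or replicate 3 (0.0576). Cyp51, the demethylase of lanosterol, measured 29.1, 10.5 and 6.92 RPKM when fasted and 10.1, 4.25 and 6.21 RPKM when refed in Lpin1-/- liver, with overlapping groups (adjusted p = 0.226). In Lpin1+/+ liver it rose by 2.76 log2 units (adjusted p = 0.0231), and the responses differed (difference -3.66 ± 0.72 log2 units, adjusted p = 0.0338). This difference was lost without any 1 of 9 libraries (adjusted p of up to 0.11), and held without fasted Lpin1-/- replicate 3, refed Lpin1-/- replicate 1 and fasted Lpin1+/+ replicate 3.

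**Figure D2:**
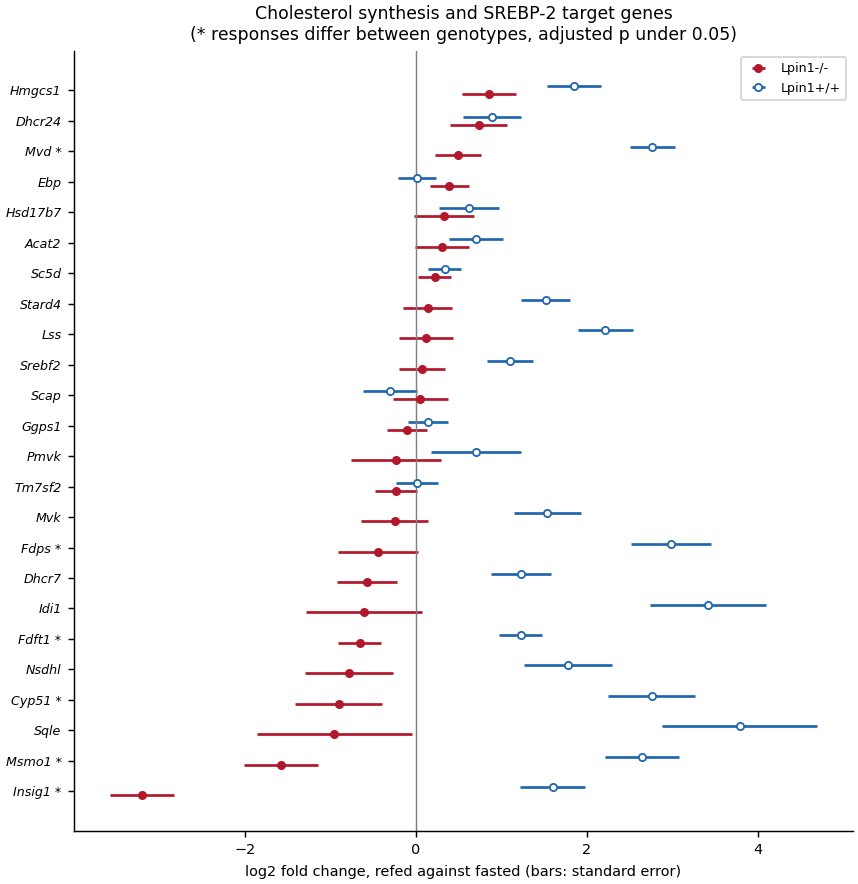
Log2 fold change on refeeding, with its standard error as a bar, for 24 of the 27 genes of the cholesterol list in Lpin1-/- (filled) and Lpin1+/+ (open) liver, ordered by the value in Lpin1-/-. Insig1 lies at -3.21 in Lpin1-/- and 1.60 in Lpin1+/+ liver, and the 6 genes marked with a star have responses that differ at an adjusted p under 0.05.

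Few genes of fat burning passed the test. Of 28 genes of fatty acid oxidation and ketogenesis, 1 fell and none rose, which is 3.57% called against 20.7% of all genes. The fall was Ppargc1b, a coactivator of mitochondrial genes, from 1.84, 4.60 and 5.76 RPKM to 0.865, 0.545 and 0.443 RPKM (log2 fold change -1.56 ± 0.334, adjusted p = 0.00845). Cpt1a, the carnitine transferase that admits fatty acids to mitochondria, measured 25.0, 55.5 and 55.3 RPKM when fasted and 74.6, 29.8 and 33.1 RPKM when refed (adjusted p = 0.982). Of 27 other PPARα-responsive genes 2 rose and 2 fell (14.8% called). Angptl4, an inhibitor of lipoprotein lipase, fell from 225, 360 and 258 RPKM to 96.1, 73.3 and 44.4 RPKM (log2 fold change -2.01 ± 0.453, adjusted p = 0.0108). Mgll, monoacylglycerol lipase, rose from 3.76, 11.3 and 11.8 RPKM to 38.1, 43.4 and 42.4 RPKM (log2 fold change 2.22 ± 0.464, adjusted p = 0.00788). The hydroxylases Cyp4a10 and Cyp4a14 varied widely within each group, Cyp4a14 from 1.36 to 99.2 RPKM over the fasted libraries, and did not pass (adjusted p = 0.235 and 0.275).

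Secreted factors of the fed liver were among the largest rises. Angptl8, a feeding-induced protein that steers fat to adipose tissue, measured 20.2, 12.9 and 9.50 RPKM when fasted and 113, 471 and 798 RPKM when refed (log2 fold change 4.59 ± 0.689, adjusted p = 0.00165). Tsku, a secreted leucine-rich protein, rose from 6.31, 26.4 and 6.49 RPKM to 140, 187 and 125 RPKM (log2 fold change 3.71 ± 0.549, adjusted p = 0.00157). Inhbe, an activin subunit, rose from 1.05, 0.802 and 0.363 RPKM to 3.42, 12.1 and 27.1 RPKM (log2 fold change 2.78 ± 0.62, adjusted p = 0.0102). Refed replicate 1 held the lowest refed value of Angptl8 and Inhbe. Gdf15, a stress hormone that lowers food intake, fell from 23.4, 44.8 and 13.2 RPKM to 2.22, 4.81 and 2.49 RPKM (log2 fold change -2.64 ± 0.463, adjusted p = 0.00351), and its response differed from the 0.45 of Lpin1+/+ liver (adjusted p = 0.046). That difference was lost without any 1 of 11 libraries (adjusted p of up to 0.128), and held without fasted Lpin1-/- replicate 3. In this list of 26 hepatokine and growth hormone axis genes 6 rose and 2 fell (30.8% called, against 20.7% of all genes). Fgf21, the fasting hepatokine, measured 1.24, 0.687 and 0.323 RPKM when fasted and 1.11, 5.72 and 8.68 RPKM when refed and did not pass (adjusted p = 0.0757). Igf1 lay at 444 to 656 RPKM in all 6 libraries (adjusted p = 0.304).

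In the circadian clock list 5 of 23 genes rose and 3 fell, where 17.8% of all genes tested rose and 2.92% fell. Per2, a repressor of the clock loop, rose from 0.934, 0.943 and 0.323 RPKM to 2.68, 6.29 and 3.91 RPKM (log2 fold change 1.58 ± 0.28, adjusted p = 0.00373), and by 1.83 log2 units in Lpin1+/+ liver (adjusted p = 0.012). Hlf, a factor of the clock output, rose from 2.04, 7.98 and 5.58 RPKM to 23.6, 17.1 and 15.2 RPKM (log2 fold change 1.77 ± 0.377, adjusted p = 0.00834), and Nfil3, which opposes Hlf at the same sites, fell from 124, 114 and 140 RPKM to 35.3, 12.2 and 33.5 RPKM (log2 fold change -2.31 ± 0.392, adjusted p = 0.00306). Arntl, which encodes BMAL1, lay at 7.92 to 15.0 RPKM with overlapping groups (adjusted p = 0.877). Nr1d1, which encodes the heme-sensing repressor REV-ERBα, fell from 27.96, 33.0 and 28.7 RPKM to 17.4, 9.05 and 12.4 RPKM (adjusted p = 0.0102, and 0.0507 without refed Lpin1-/- replicate 2). The livers of the 2 states were taken at different hours.

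Many genes for making and folding protein rose. Of 42 genes of ER chaperones and the unfolded protein response 17 rose and 1 fell (42.9% called, against 20.7% of all genes). The median was 0.56 as deposited and 0.32 after rescaling, where 6 rose, and 1.04 in Lpin1+/+ liver, where 20 rose. Hyou1, a chaperone of the ER lumen, measured 5.72, 9.71 and 6.74 RPKM when fasted and 48.9, 64.2 and 61.4 RPKM when refed (log2 fold change 2.84 ± 0.291, adjusted p = 0.000357), close to the 2.86 of Lpin1+/+ liver. Xbp1, the factor spliced by IRE1, rose from 37.6, 50.2 and 43.8 RPKM to 128, 189 and 178 RPKM (log2 fold change 1.88 ± 0.235, adjusted p = 0.000778). Hspa5, the master chaperone BiP, measured 322, 308 and 303 RPKM and then 521, 854 and 801 RPKM (log2 fold change 1.19 ± 0.281, adjusted p = 0.0134). The groups did not overlap, but the call was lost on rescaled values (adjusted p = 0.115) and without refed Lpin1-/- replicate 2 (0.0636) or replicate 3 (0.0535). Herpud1, a membrane protein of ER-associated degradation, went the other way, from 668, 1090 and 1030 RPKM to 347, 307 and 373 RPKM (log2 fold change -1.41 ± 0.419, adjusted p = 0.0354). Its call was lost without each refed Lpin1-/- library (adjusted p = 0.0747 to 0.109), fasted Lpin1-/- replicate 2 or 3 (0.102 and 0.0812) or fasted Lpin1+/+ replicate 3 (0.051). Promoters are shown for 4 genes, all called on refeeding, that hold an ER stress response element of either type. The ER stress response element was present in 9 of the 35 RefSeq promoters matched to the list (25.7%) and in 37 of all 32851 (0.113%), both strands searched over the same 250 bases. The 9 genes were Calr, Canx, Creld2, Derl3, Dnajc3, Hsp90b1, Hspa5, Pdia6 and Syvn1. Of these 5 rose and none fell, where 17 of the 42 genes of the list and 17.8% of all genes rose. Derl3, whose promoter is not shown, did not pass the test (adjusted p = 0.991). The type II element, in 0.0304% of promoters, was found in Herpud1. Capitals mark these matches.
Hspa5 promoter, chr2:34771840-34772089, + strand: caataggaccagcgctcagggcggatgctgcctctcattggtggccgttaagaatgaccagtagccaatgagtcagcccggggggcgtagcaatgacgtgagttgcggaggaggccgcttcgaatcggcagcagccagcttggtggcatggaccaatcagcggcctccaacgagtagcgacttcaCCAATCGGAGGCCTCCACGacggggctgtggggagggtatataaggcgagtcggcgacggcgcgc
Hsp90b1 promoter, chr10:86705445-86705694, - strand: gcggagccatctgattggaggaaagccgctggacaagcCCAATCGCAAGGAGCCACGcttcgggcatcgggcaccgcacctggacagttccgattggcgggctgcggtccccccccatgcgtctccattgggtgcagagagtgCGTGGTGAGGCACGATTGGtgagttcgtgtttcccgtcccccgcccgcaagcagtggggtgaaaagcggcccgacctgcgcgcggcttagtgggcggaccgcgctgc
Creld2 promoter, chr15:88819396-88819645, + strand: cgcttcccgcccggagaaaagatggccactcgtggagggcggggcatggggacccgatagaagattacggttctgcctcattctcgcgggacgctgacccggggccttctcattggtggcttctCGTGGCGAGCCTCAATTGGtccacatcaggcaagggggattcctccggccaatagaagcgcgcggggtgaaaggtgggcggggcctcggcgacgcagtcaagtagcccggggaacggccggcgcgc
Herpud1 promoter, chr8:94386179-94386428, + strand: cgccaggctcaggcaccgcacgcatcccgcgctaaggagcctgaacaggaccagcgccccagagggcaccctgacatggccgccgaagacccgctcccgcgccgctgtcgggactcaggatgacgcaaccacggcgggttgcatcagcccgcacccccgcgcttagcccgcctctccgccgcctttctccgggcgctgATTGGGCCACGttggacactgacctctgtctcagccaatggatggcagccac
Hsp90b1 holds the element on both strands at separate places. Creld2, a chaperone-like secreted protein, rose from 21.8, 30.1 and 14.2 RPKM to 41.1, 128 and 108 RPKM (log2 fold change 1.92 ± 0.506, adjusted p = 0.0214, and 0.0663 on rescaled values). Hsp90b1, the ER form of HSP90, rose from 181, 255 and 185 RPKM to 296, 379 and 378 RPKM (adjusted p = 0.0427, and 0.264 on rescaled values). The call of Creld2 was also lost without fasted Lpin1-/- replicate 1 or 3 (adjusted p = 0.0586 and 0.0637) and without refed Lpin1-/- replicate 2 or 3 (adjusted p = 0.0904 and 0.0745). That of Hsp90b1 was lost when any 1 of 8 libraries was left out (adjusted p of up to 0.133), and held without fasted Lpin1-/- replicate 2, fasted Lpin1+/+ replicate 1 or refed Lpin1+/+ replicate 2 or 3.

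Aminoacyl-tRNA synthetases, which charge tRNAs with amino acids, gave the highest share of calls of any pathway list. Of 22 genes tested 15 rose and none fell (68.2%, against 20.7% of all genes), with a median of 0.78 (0.54 after rescaling, where 6 rose). The list also holds Aimp1 and Aimp2, which are partners of the synthetases, and Aimp2 was among the 15. The call held with each library left out in turn for 12 of the 15. Yars rose from 2.73, 4.79 and 4.89 RPKM to 15.4, 13.2 and 13.8 RPKM (log2 fold change 1.58 ± 0.253, adjusted p = 0.00218). In the ribosome biogenesis list 27 of 71 genes rose and none fell (38% called), 16 of them with each library left out in turn. The median was 0.63 (0.38 after rescaling, where 12 rose and 1 fell). Nop56, a box C/D snoRNP protein, measured 9.37, 6.03 and 7.58 RPKM when fasted and 24.2, 26.3 and 24.4 RPKM when refed (log2 fold change 1.60 ± 0.176, adjusted p = 0.000499). Nop2, an rRNA methyltransferase, rose from 4.90, 4.15 and 4.95 RPKM to 23.5, 23.98 and 19.2 RPKM (log2 fold change 2.03 ± 0.23, adjusted p = 0.000583). Myc, which drives this programme, did not pass the test and measured 5.37, 6.49 and 26.4 RPKM when fasted and 4.27, 3.04 and 1.49 RPKM when refed (log2 fold change -1.54 ± 0.57, adjusted p = 0.0758). The cytosolic heat shock protein list had the highest median of any pathway list, 0.87 (0.63 after rescaling). In it 9 of 23 genes rose and none fell (39.1% called), and 4 of the 9 held with each library left out in turn. This list also holds the mitochondrial Hspa9, Hspd1 and Hspe1 and the transcription factors Hsf1 and Hsf2, and both factors were among the 9. Chordc1, an HSP90 co-chaperone, rose from 4.32, 4.01 and 3.34 RPKM to 19.8, 31.6 and 23.7 RPKM (log2 fold change 2.39 ± 0.318, adjusted p = 0.000919). Dnaja1, an HSP70 partner, rose from 26.8, 28.7 and 21.5 RPKM to 73.5, 117 and 101 RPKM (log2 fold change 1.87 ± 0.294, adjusted p = 0.00209). Hspa1b, an inducible HSP70, measured 0.0153, 0.164 and 0.0581 RPKM when fasted and 0.946, 2.90 and 1.54 RPKM when refed, and did not pass (adjusted p = 0.0562).

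**Figure D3:**
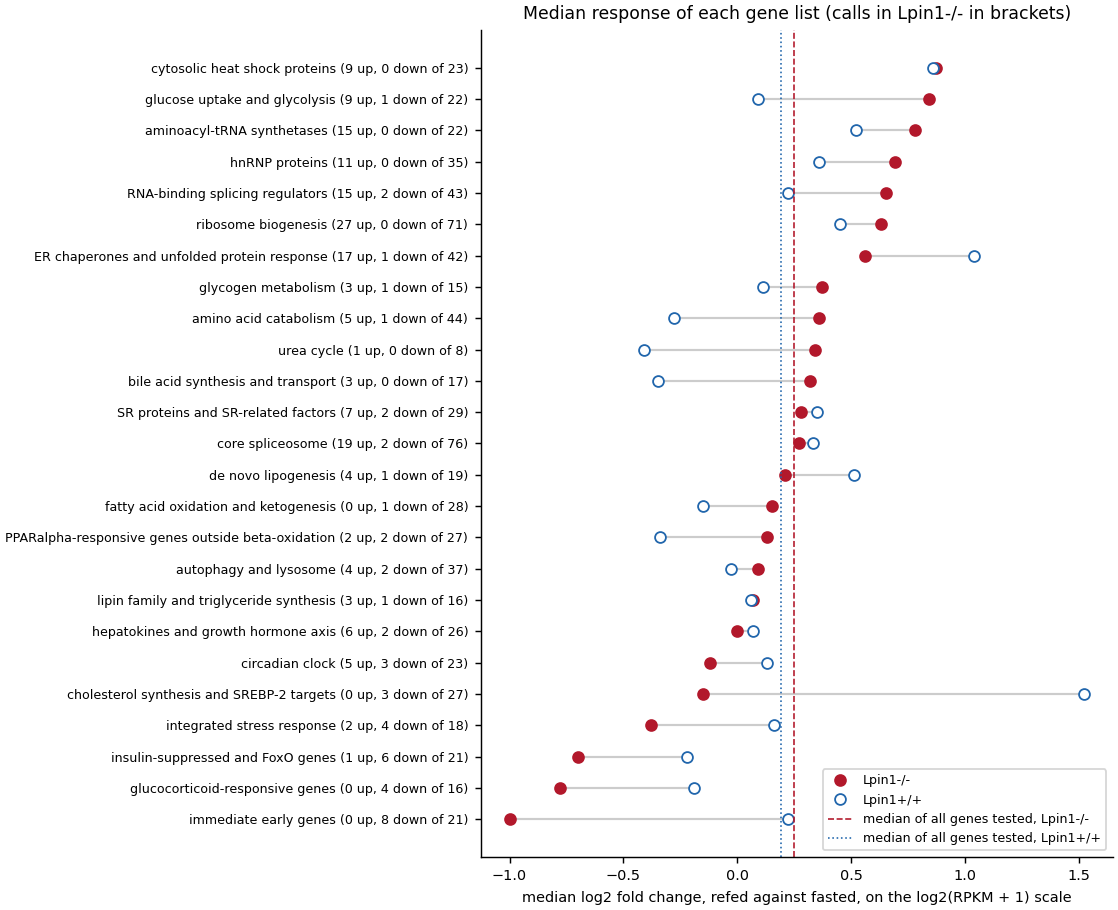
Median log2 fold change on refeeding of 25 gene lists in Lpin1-/- (filled) and Lpin1+/+ (open) liver, with dashed and dotted lines at the medians of all genes tested, 0.25 and 0.19. In Lpin1-/- liver the medians run from -1 for immediate early genes to 0.87 for the cytosolic heat shock protein list. The widest gap between the genotypes is that of the cholesterol list, at -0.15 against 1.52.

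Several stress and early response genes fell. Of 21 immediate early genes 8 fell and none rose (38.1% called, against 20.7% of all genes). The median was -1 log2 unit (-1.22 after rescaling, where 12 fell), against 0.22 in Lpin1+/+ liver. Atf3, a stress-induced repressor, measured 7.69, 12.7 and 20.9 RPKM when fasted and 1.85, 1.06 and 1.44 RPKM when refed (log2 fold change -2.50 ± 0.341, adjusted p = 0.00103), and the response differed from the 1.38 of Lpin1+/+ liver (adjusted p = 0.00664). Btg2, an antiproliferative factor, fell from 45.8, 34.7 and 104 RPKM to 9.41, 3.90 and 4.40 RPKM (log2 fold change -3.10 ± 0.561, adjusted p = 0.00411). Jund, a subunit of AP-1, fell from 147, 225 and 183 RPKM to 72.5, 53.4 and 50.4 RPKM (log2 fold change -1.63 ± 0.268, adjusted p = 0.00255), and its response differed from the 0.78 of Lpin1+/+ liver (adjusted p = 0.0157, and up to 0.0595 without refed Lpin1-/- replicate 2 or 3). Atf3, Btg2, Jund and Klf4 made up the 4 falls that held with each library left out in turn. Of 18 genes of the integrated stress response 2 rose and 4 fell (33.3% called), and 1 of each direction, Cebpg and Atf3, held in that way. Atf4 itself, the factor of this response, measured 191, 142 and 210 RPKM when fasted and 99.8, 107 and 121 RPKM when refed (log2 fold change -0.71 ± 0.211, adjusted p = 0.0356), and the call was lost without any 1 of the refed Lpin1-/- libraries (adjusted p = 0.0647 to 0.103) and without fasted Lpin1-/- replicate 1 (0.103) or replicate 3 (0.0971).

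Other pathways of hepatocytes were called at shares near or below the 20.7% of all genes. Of 44 genes of amino acid catabolism 5 rose and 1 fell (13.6% called), and of 8 urea cycle genes 1 rose (12.5%). Shmt1, which moves one-carbon units from serine, rose from 42.3, 27.1 and 28.1 RPKM to 75.3, 99.7 and 94.1 RPKM (log2 fold change 1.46 ± 0.26, adjusted p = 0.00383), and Nags, which makes the activator of the urea cycle, from 47.1, 48.4 and 51.2 RPKM to 109, 110 and 106 RPKM (log2 fold change 1.14 ± 0.16, adjusted p = 0.00128). Cps1, the first urea cycle enzyme, overlapped between the states (adjusted p = 0.295). In the bile acid list 3 of 17 rose (17.6% called). Nr1h4, which encodes the bile acid receptor FXR, measured 20.8, 16.5 and 17.9 RPKM when fasted and 55.3, 86.1 and 77.3 RPKM when refed (log2 fold change 1.91 ± 0.192, adjusted p = 0.00035), and Baat, which conjugates bile acids, rose from 116, 77.1 and 77.2 RPKM to 164, 251 and 233 RPKM (log2 fold change 1.26 ± 0.221, adjusted p = 0.00354). Both responses differed from those of Lpin1+/+ liver, which were -0.12 for Nr1h4 and -0.37 for Baat (adjusted p = 0.00794 and 0.0334). The difference of Nr1h4 held under all alternatives run, and that of Baat was lost on rescaled values, with the replicate block and without any 1 of 9 libraries (adjusted p of up to 0.11), while it held without fasted Lpin1-/- replicate 1, refed Lpin1-/- replicate 1 and fasted Lpin1+/+ replicate 1. Cyp7a1, the rate-limiting enzyme of bile acid synthesis, ranged from 1.56 to 24.2 RPKM when fasted and from 17.2 to 57.9 RPKM when refed and did not pass (adjusted p = 0.0744). In the autophagy and lysosome list 4 of 37 rose and 2 fell (16.2% called). Tfeb, the master factor of lysosomal genes, rose from 1.18, 3.49 and 2.45 RPKM to 5.76, 6.34 and 6.08 RPKM (log2 fold change 1.13 ± 0.248, adjusted p = 0.00972), and Map1lc3b, the autophagosome protein LC3B, fell from 386, 320 and 429 RPKM to 210, 248 and 222 RPKM (adjusted p = 0.0158, and 0.0508 and 0.0571 without refed Lpin1-/- replicates 1 and 3).

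Genes of the splicing machinery were described as 4 lists. SR proteins bind exons and promote their use, hnRNP proteins often oppose them, and the U1, U2 and U4/U6.U5 particles of the core spliceosome carry out the reaction. Of 183 tested genes of these 4 lists 52 rose and 6 fell (31.7% called, where 20.7% of all genes were called, 17.8% as rises and 2.92% as falls), with a median of 0.41 (0.19 after rescaling, where 32 rose and 8 fell), and 25 rises and 2 falls held with each library left out in turn. In the order SR, hnRNP, RNA-binding regulator and core spliceosome list, the rises were 7 of 29, 11 of 35, 15 of 43 and 19 of 76, so that the SR and core spliceosome lists lay nearest to the share of all genes. Srsf1, a founding SR protein, measured 5.45, 9.75 and 8.38 RPKM when fasted and 45.4, 35.6 and 31.2 RPKM when refed (log2 fold change 2.13 ± 0.283, adjusted p = 0.000914). Tardbp, which encodes TDP-43, rose from 11.5, 10.2 and 12.6 RPKM to 30.1, 40.8 and 36.8 RPKM (log2 fold change 1.56 ± 0.198, adjusted p = 0.000781). Mbnl1, a muscleblind regulator, rose from 4.21, 4.78 and 6.19 RPKM to 26.4, 19.4 and 17.6 RPKM (log2 fold change 1.86 ± 0.345, adjusted p = 0.00458). Esrp2, the hepatocyte epithelial splicing factor, rose from 7.69, 11.1 and 11.5 RPKM to 35.5, 26.4 and 26.2 RPKM (log2 fold change 1.46 ± 0.271, adjusted p = 0.00459). Sf3a1, a U2 particle subunit, rose from 2.18, 3.33 and 3.68 RPKM to 16.8, 14.4 and 10.8 RPKM (log2 fold change 1.88 ± 0.267, adjusted p = 0.0013). Refed values lay above all fasted values in each of these 5 genes.

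The 6 falls were Tra2a, Tra2b, Cirbp, Rbm17, Lsm8 and Snrpb2, of which Tra2a and Cirbp held with each library left out. Tra2a, an SR-like activator of exons, measured 11.1, 10.01 and 8.39 RPKM when fasted and 3.32, 3.47 and 2.72 RPKM when refed (log2 fold change -1.37 ± 0.2, adjusted p = 0.00146). In Lpin1+/+ liver it rose from 5.64, 3.62 and 4.98 RPKM to 12.4, 9.24 and 12.3 RPKM, and the responses differed (difference -2.48 ± 0.282 log2 units, adjusted p = 0.00379). Cirbp, a cold-inducible RNA-binding protein, measured 86.0, 83.2 and 101 RPKM when fasted and 23.9, 12.4 and 18.01 RPKM when refed (log2 fold change -2.29 ± 0.26, adjusted p = 0.000583). Rbm3, its cold-inducible relative, measured 163, 81.3 and 102 RPKM and 113, 123 and 128 RPKM, with overlapping groups (adjusted p = 0.838). Hnrnpa1, Sf3b1 and U2af1 also did not pass (adjusted p = 0.835, 0.258 and 0.171).

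**Figure D4:**
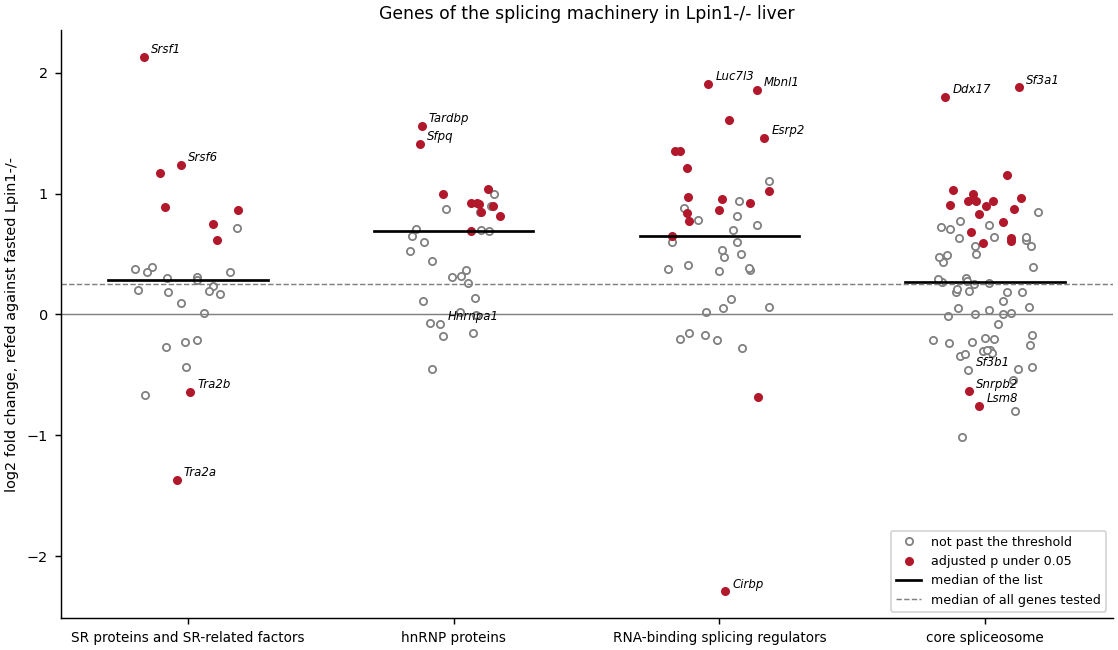
Log2 fold change on refeeding in Lpin1-/- liver for each tested gene of the 4 splicing lists, filled where the adjusted p is under 0.05, with a bar at each list's median and a dashed line at the median of all genes, 0.25. Srsf1 is the highest point at 2.13 and Cirbp the lowest at -2.29.

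Exon use was compared in skipped-exon events, in which an internal exon is joined in or left out between the same 2 neighbours. The deposited counts of junction and exon reads for the fasted and for the refed libraries stand in separate tables, and 34409 events occur in both. Of these, 28444 events in 7097 genes had at least 10 counts in every library. Inclusion is given as the share of the form with the exon, after the counts of each form were divided by its length. Refeeding changed 2220 events (7.8%) in 1421 genes of Lpin1-/- liver, 1510 (5.31%) toward more and 710 (2.5%) toward less inclusion. Of these events, 1370 averaged 5 or more reads of their less used form, 797 moving toward more and 573 toward less inclusion. When only events passing this floor were tested, 1914 were called and 57.4% of them moved toward more inclusion, against 68% in the main fit. Events of a gene often overlap and share junction counts, so events are not independent. The median absolute difference in inclusion of the called events was 0.0926, and 1064 differed by at least 0.1. In Lpin1+/+ liver the same limma test called 0 events, with 1459 at an unadjusted p under 0.05 and a smallest adjusted p of 0.407. The difference of the responses passed for 221 events. Fewer calls were made in Lpin1-/- liver when only its 6 libraries were fitted (1058). The count also fell without the library first in the fasted count list (1167), the second there (1374), or the second (1078) or the third (1349) in the refed list, whose places are not numbered in the table. Exon length was a multiple of 3 for 35.2% of called and 39.6% of all events.

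Exons of Rbm5 and Clk1 were among the 5 largest gains, and that of Luc7l was among the 5 largest losses. Those of Clk4 and Srsf11 were named as the next largest within the splicing lists. Of 569 events tested in the genes of the 4 splicing lists 100 were called (17.6%, against 7.8% of all events). They lay in 51 of 149 genes, where 1421 of all 7097 genes held a called event. The exon of Rbm5 (chr9:107750008-107750092, - strand), whose product is a tumour suppressor that regulates 3′ splice sites, was included at 0.138, 0.315 and 0.25 in fasted and 0.886, 0.962 and 0.951 in refed Lpin1-/- liver (difference 0.699, adjusted p = 0.00252), from 61 to 296 counts per library. The Clk1 exon (chr1:58420121-58420208, - strand), in the kinase that phosphorylates SR proteins, went from 0.244, 0.151 and 0.414 to 0.909, 0.959 and 0.898 (difference 0.652, adjusted p = 0.000883). In Clk4, a relative of Clk1, an exon of 67 bases (chr11:51268165-51268231, + strand) went from 0.79, 0.89 and 0.764 to 0.277, 0.21 and 0.228 (difference -0.577, adjusted p = 0.000883). Whether this exon corresponds to the Clk1 exon, which has 88 bases, was not tested. Luc7l, a U1-associated factor, lost an exon of 71 bases (chr17:26253974-26254044, + strand), from 0.876, 0.951 and 0.923 to 0.29, 0.0955 and 0.157 (difference -0.736, adjusted p = 0.000568). Srsf11, an SR-related factor, lost one of 117 bases (chr3:158023243-158023359, - strand), from 0.886, 0.742 and 0.558 to 0.183, 0.177 and 0.177 (difference -0.55, adjusted p = 0.00312). Lack of overlap between the fasted and refed inclusion values was a condition for naming these 5 exons. Mean inclusion in Lpin1+/+ liver lay nearer to the refed than to the fasted Lpin1-/- means in both states, at means of 0.85 and 0.948 for Rbm5, 0.807 and 0.899 for Clk1, 0.241 and 0.225 for Clk4, 0.265 and 0.176 for Luc7l, and 0.229 and 0.345 for Srsf11. The difference of the responses passed for Clk4, Luc7l and Srsf11 (adjusted p = 0.0311, 0.0323 and 0.0333) and not for Rbm5 or Clk1 (adjusted p = 0.285 and 0.057). The level of Rbm5 also rose (log2 fold change 0.92 ± 0.22, adjusted p = 0.0139, and 0.051 without refed Lpin1-/- replicate 1), whereas those of Clk1 and Clk4 did not pass (adjusted p = 0.622 and 0.442).

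**Figure D5:**
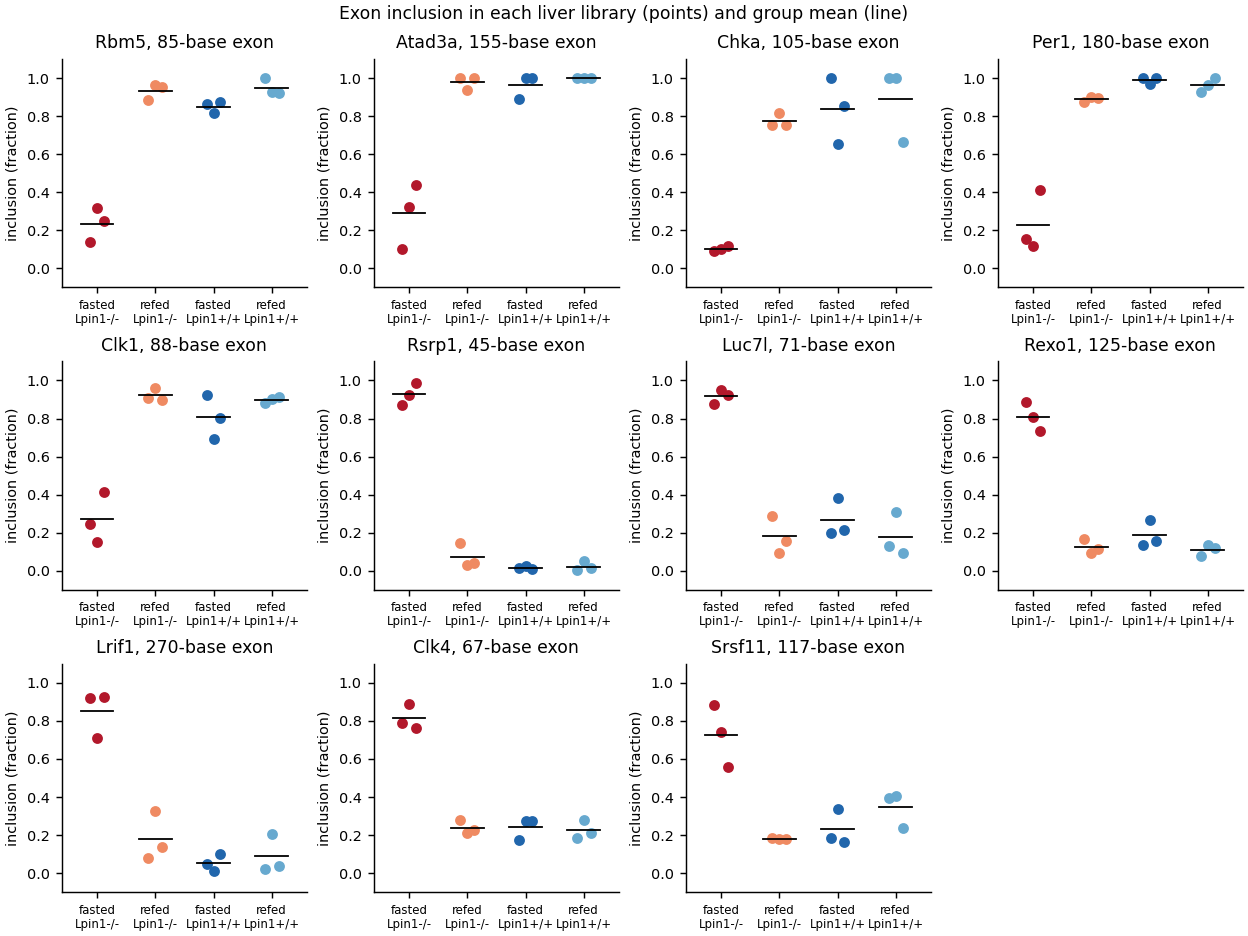
Inclusion, as a share from 0 to 1, of 11 skipped exons in the 4 groups, with 1 point per library in the order of the count lists and a line at the group mean. The exons were chosen for lack of overlap between fasted and refed Lpin1-/- libraries. Inclusion moved upward for Rbm5, Atad3a, Chka, Per1 and Clk1 on refeeding and downward for the other 6.

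Metabolic, clock and chromatin genes were among the other large switches. Per1, a repressor of the clock, gained a coding exon of 180 bases (chr11:69104634-69104813, + strand), from 0.153, 0.115 and 0.414 to 0.875, 0.902 and 0.896 (difference 0.663, adjusted p = 0.017), while its level did not pass (adjusted p = 0.381). Chka, choline kinase α, the first enzyme of phosphatidylcholine synthesis, gained an exon of 105 bases (chr19:3875367-3875471, + strand), from 0.0914, 0.1 and 0.115 to 0.754, 0.817 and 0.753 (difference 0.673, adjusted p = 0.0068). Atad3a, a mitochondrial membrane ATPase, gained one of 155 bases (chr4:155748675-155748829), from 0.104, 0.324 and 0.44 to 1.0, 0.937 and 1.0 (difference 0.69, adjusted p = 0.000845). Rsrp1, an arginine and serine rich protein, lost an exon of 45 bases (chr4:134925777-134925821, + strand), from 0.873, 0.926 and 0.985 to 0.146, 0.0297 and 0.0411 (difference -0.855, adjusted p = 0.000845), the response differing from that of Lpin1+/+ liver (adjusted p = 0.0312). Rexo1 and Lrif1 lost exons by 0.684 and 0.672 in inclusion (adjusted p = 0.0005 and 0.00687). Of 1386 genes with a called event 437 also had a called level (31.5%), against 21.5% of the 6866 genes tested for both.

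The sequences of 4 exons are shown to set those used more after refeeding, in Rbm5 and Per1, beside those used less, in Clk4 and Luc7l. They are read from GENCODE M21 transcripts (GRCm38), 5′ to 3′ on the strand of the gene, with no capitals since no motif was searched.
Rbm5 exon, chr9:107750008-107750092, - strand: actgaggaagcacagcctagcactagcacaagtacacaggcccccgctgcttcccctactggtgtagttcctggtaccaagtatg
Per1 exon, chr11:69104634-69104813, + strand: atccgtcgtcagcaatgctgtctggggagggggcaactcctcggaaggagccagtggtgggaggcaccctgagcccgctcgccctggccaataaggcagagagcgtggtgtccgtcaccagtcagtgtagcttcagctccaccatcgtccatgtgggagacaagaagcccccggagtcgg
Clk4 exon, chr11:51268165-51268231, + strand: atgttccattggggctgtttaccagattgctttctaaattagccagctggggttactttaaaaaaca
Luc7l exon, chr17:26253974-26254044, + strand: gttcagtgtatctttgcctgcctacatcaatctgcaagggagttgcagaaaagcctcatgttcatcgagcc
In the annotation, the Rbm5 exon occurs in 6 transcripts, 2 protein-coding, 2 of the nonsense-mediated decay class and 2 with a retained intron, and the Per1 exon in 4 protein-coding transcripts. The Clk4 exon occurs in 5 transcripts, 1 protein-coding, 3 of nonsense-mediated decay and 1 with a retained intron, and the Luc7l exon in 1 transcript, of the nonsense-mediated decay class. The Srsf11 exon likewise occurs in 2 transcripts of that class. The Rsrp1 exon occurs in 2 transcripts and the Lrif1 exon in 1, none of them protein-coding. No GENCODE M21 transcript holds an exon with the same ends as the Chka, Atad3a, Clk1 or Rexo1 exon, or that of the gene model Gm42936. The 85 bases of Rbm5, the 67 of Clk4 and the 71 of Luc7l are not multiples of 3, and the 180 of Per1 are. GC content was 55.3% for Rbm5, 63.3% for Per1, 38.8% for Clk4 and 47.9% for Luc7l.

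The genotypes differed in their refeeding response for 147 genes, 91 (0.791%) higher and 56 (0.487%) lower in Lpin1-/- liver. On rescaled values the count was 321. It was 30 without refed Lpin1-/- replicate 3, 31 without refed Lpin1-/- replicate 2, 41 without fasted Lpin1+/+ replicate 3, 50 and 80 without fasted Lpin1-/- replicates 2 and 1, 66, 61 and 55 without refed Lpin1+/+ replicates 1, 2 and 3, and 52 without both libraries of high immune genes. Several of the largest rises of Lpin1-/- liver belonged here. Hdhd3, a protein of the haloacid dehalogenase family, measured 3.19, 1.97 and 2.48 RPKM in fasted and 52.3, 135 and 105 RPKM in refed Lpin1-/- liver (log2 fold change 4.71 ± 0.446, adjusted p = 0.000302), the largest rise of all. In Lpin1+/+ liver it measured 18.7, 70.2 and 58.2 RPKM when fasted and 105, 120 and 126 RPKM when refed, and the difference was 3.28 ± 0.631 log2 units (adjusted p = 0.0334). It was lost without any 1 of 8 libraries (adjusted p of up to 0.11), and held without fasted Lpin1-/- replicate 3, refed Lpin1-/- replicate 1 and fasted Lpin1+/+ replicates 1 and 2. Refed Hdhd3 levels overlapped between the genotypes, and the fasted Lpin1-/- values were the low ones. Foxa3, a forkhead factor of hepatocytes, was likewise lowest in fasted Lpin1-/- liver, at 4.85, 7.12 and 13.3 RPKM in fasted and 69.8, 86.1 and 77.4 RPKM in refed Lpin1-/- liver, against 38.9 to 47.3 and 51.5 to 62.5 RPKM in Lpin1+/+ liver (difference 2.72 ± 0.381, adjusted p = 0.00915). Anks4b, a scaffold of the brush border that liver also expresses, rose from 1.06, 1.01 and 0.91 RPKM to 19.8, 27.2 and 22.5 RPKM (difference 2.81 ± 0.282, adjusted p = 0.00208). Slc30a10, a manganese exporter, rose from 1.23, 3.89 and 5.32 RPKM to 24.1, 22.5 and 24.6 RPKM (difference 3.10 ± 0.58, adjusted p = 0.0317). Its difference was lost with the replicate block and without any 1 of 8 libraries (adjusted p of up to 0.0958), and held without fasted Lpin1-/- replicates 1 and 3, fasted Lpin1+/+ replicate 2 and refed Lpin1+/+ replicate 1. The peroxisomal acyltransferases Acnat1 and Acnat2, which conjugate fatty acids with amino acids, rose by 2.81 and 3.04 log2 units (differences 2.52 and 3.67, adjusted p = 0.0136 and 0.0399). The difference of Acnat1 was lost without refed Lpin1-/- replicate 3 (adjusted p = 0.0544). That of Acnat2 was lost without any 1 of the 6 Lpin1-/- libraries, fasted Lpin1+/+ replicate 2 or refed Lpin1+/+ replicates 2 and 3 in turn (adjusted p of up to 0.126).

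Among falls that differed between genotypes, 3 are described because their fasted Lpin1-/- values lay above those of the other 3 groups. Slc25a33, a mitochondrial pyrimidine nucleotide carrier, measured 366, 297 and 275 RPKM in fasted and 22.6, 30.8 and 37.3 RPKM in refed Lpin1-/- liver, and 20.6 to 45.8 RPKM in all Lpin1+/+ libraries (log2 fold change -3.35 ± 0.304, difference -3.28 ± 0.43, adjusted p of the difference 0.00758). Hilpda, a lipid droplet protein that inhibits the lipase ATGL, measured 142, 56.4 and 132 RPKM and then 7.23, 10.4 and 10.2 RPKM, and 6.66 to 14.4 RPKM in Lpin1+/+ liver (difference -3.58 ± 0.502, adjusted p = 0.00915). Sesn1, described above, lay at 1.81 to 5.07 RPKM in Lpin1+/+ liver (difference -3.47 ± 0.474, adjusted p = 0.00913). In these 3 genes the refed Lpin1-/- values overlapped the Lpin1+/+ range.

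Markers of other cell types mostly had lower values after refeeding, and 3 of them passed the test. Values were lower for 12 of 12 macrophage, 9 of 9 T and NK cell, 7 of 7 cholangiocyte, 4 of 5 B cell, 5 of 6 neutrophil and 7 of 8 erythroid markers tested. They were lower for 9 of 11 stellate cell, 7 of 10 sinusoidal endothelium and 4 of 12 hepatocyte markers. Of all 11507 genes tested 3836 had lower values. Summed B cell markers lay at 81.4 to 1500 RPKM when fasted and 52.1 to 225 RPKM when refed. Those of T and NK cells lay at 5.32 to 46.7 and 2.71 to 7.85 RPKM, and those of cholangiocytes at 27.1 to 484 and 20.9 to 30.3 RPKM. No defining marker of these 3 types passed 2.15, 1.96 and 10.8 RPKM in these 6 libraries, so the high sums came from other members of the lists. Neutrophil markers summed to 57.2 to 179 and 31 to 60.8 RPKM, and erythroid markers to 475 to 1950 and 244 to 733 RPKM. Fasted Lpin1-/- replicate 1 held the highest sum of the 6 Lpin1-/- libraries in all 5 of these lists. Fabp4, a fatty acid carrier of adipocytes that macrophages and endothelium also express, measured 96.1, 88.3 and 68.5 RPKM when fasted and 23.6, 37.7 and 37.5 RPKM when refed (log2 fold change -1.35 ± 0.339, adjusted p = 0.0175, and 0.0641, 0.0533 and 0.0648 without fasted Lpin1-/- replicate 1, fasted Lpin1-/- replicate 2 and refed Lpin1-/- replicate 1). The defining adipocyte markers were at no more than 0.0391 RPKM in these 6 libraries. Clec4f, a lectin of Kupffer cells, measured 94.0, 65.9 and 74.4 RPKM when fasted and 19.9, 49.1 and 31.3 RPKM when refed (log2 fold change -1.28 ± 0.343, adjusted p = 0.0235, and 0.0874, 0.0838 and 0.0647 without fasted Lpin1-/- replicate 1, refed Lpin1-/- replicate 1 and refed Lpin1-/- replicate 3). Col1a2, a collagen chain and the 1 stellate cell or fibroblast marker called, had a log2 fold change of -1.27 (adjusted p = 0.0369), a call that was lost without any 1 of 6 libraries (adjusted p of up to 0.112, without fasted Lpin1-/- replicate 1). Summed markers of stellate cells lay at 219 to 315 RPKM when fasted and 178 to 228 RPKM when refed, and those of sinusoidal endothelium at 60.7 to 96.8 and 56.1 to 75.9 RPKM.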

How the data were processed

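Liver RNA of 12 mice, 3 per group, was sequenced in paired reads of 69 bases from a stranded library kit. Per the labels and the study's methods, the authors aligned reads to GRCm38 with HISAT2 2.0.5, counted them per gene of Ensembl release 84 with HTSeq 0.6.0 and deposited RPKM values, 1 column per library. The authors also deposited rMATS tables of skipped exons with whole-number read counts of each form, in which the 3 libraries of a group stand in a list without numbers. The rMATS version is not given in the sources used here. P-values and inclusion levels of the authors' own comparisons, and a table of functional terms, were not used. The deposited RPKM do not hold total read counts, so the depth of each library was estimated only relative to the others.

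The fit used limma 3.58.1 (with trend, R 4.3.3) on log2(RPKM + 1). It was limited to 11507 genes whose average over the 12 libraries reached 0.5 RPKM. The 4 groups shared 1 estimate of the spread, p-values were adjusted by the Benjamini-Hochberg method over all genes tested, and the threshold was 0.05. The count test of the study (DESeq2 1.20.0) needs counts and was not run. The difference of responses is the change in Lpin1-/- minus that in Lpin1+/+ liver, and the 2 responses share no library. For exons, limma was fitted to the log2 ratio of the length-normalised counts of both forms, with 0.5 added to each. The fasted and refed counts come from 2 separate rMATS tables joined by exon coordinates, after 1523 fasted and 1719 refed lists of Lpin1+/+ counts were checked against another deposited table and found identical. With 3 libraries against 3, an exact permutation test of a single gene cannot go below 0.1. The fits were tested on simulated data.

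Named were the 12 rises and 12 falls of largest change without overlap, fixed genes of each list with up to 3 further called members per direction, and the 5 largest differences of response per direction, with some left out for room. Exons were named if called, without overlap between fasted and refed Lpin1-/- libraries, and with at least 5 mean counts of the rarer form. Of these, the 5 largest gains, the 5 largest losses and the 5 largest changes in genes of the splicing lists were taken. Some of the genes in these lists are counted with their list but not reported here by name. Genes named outside this rule, such as the called members of a list, cell type markers and genes with a promoter element, were chosen after their values were seen. The genes, lists and cell type markers were chosen with earlier results of these data known. Promoters and their motif matches come from RefSeq (GRCm38.p6). The alternatives were another pseudocount, other filters, median-ratio rescaling, a replicate block, leaving out libraries, a minimum change, and other count floors and weights for exons.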

Additional observations from a re-analysis of the deposited data

Results flagged for a closer look

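These values are set apart because the response to refeeding differed between Lpin1-/- and Lpin1+/+ liver by limma's test of the difference itself, adjusted by the Benjamini-Hochberg method. Each is the log2 fold change in Lpin1-/- liver minus that in Lpin1+/+ liver.

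Rises were larger in Lpin1-/- liver for 14 of the genes named. Hdhd3, Foxa3, Anks4b and Slc30a10, described above, differed by 3.28, 2.72, 2.81 and 3.10. The acyltransferases Acnat2 and Acnat1 differed by 3.67 and 2.52. Of the bile acid genes, Nr1h4 differed by 2.04 and Baat by 1.62. Shmt1, of one-carbon metabolism, differed by 1.81 and Luc7l3, a U1-associated splicing factor, also by 1.62. The calls of Shmt1 and Luc7l3 were each lost without any 1 of 10 libraries (adjusted p of up to 0.126 and 0.114), without a filter on low values and with the replicate block, and that of Shmt1 also on rescaled values. Tmie changed by 2.36 in Lpin1-/- and by -1.19 in Lpin1+/+ liver, a difference of 3.55. For Paqr9, Depdc7 and 2010003K11Rik the differences were 2.98, 2.54 and 2.26, with responses in Lpin1-/- liver of 3.22, 2.80 and 2.97. These 3 calls were lost without 3, 3 and 6 single libraries (adjusted p of up to 0.0749, 0.0581 and 0.0817). The differences of Hdhd3, Slc30a10, Acnat2, Acnat1, Baat, Cyp51, Gdf15 and Jund also lost their call without libraries named above, whereas those of Anks4b, Foxa3, Nr1h4, Tmie, Insig1, Msmo1, Atf3, Sesn1, Hilpda, Slc25a33 and Tra2a held under all alternatives run.

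The difference was negative for 12 further genes. Of the cholesterol genes, Insig1 differed by -4.81, Msmo1 by -4.23 and Cyp51 by -3.66. Cyp51, the demethylase of lanosterol, had a response of 2.76 in Lpin1+/+ liver and -0.90 in Lpin1-/- liver. Of the stress and early response genes, Atf3 differed by -3.88, Gdf15 by -3.09 and Jund by -2.41. Sesn1, Hilpda and Slc25a33 differed by -3.47, -3.58 and -3.28. Txnip and Ppp1r3g, of glucose and glycogen metabolism, differed by -2.49 and -3.07. These calls were lost without any 1 of 10 libraries for Txnip and 9 for Ppp1r3g (adjusted p of up to 0.0932 and 0.11), without a filter on low values and with the replicate block, and that of Ppp1r3g also with a pseudocount of 0.1. The splicing factor Tra2a differed by -2.48.

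Among exons the difference is in the log2 ratio of inclusion to skipping, on the same sign. It was -3.74 for Clk4, -3.99 for Rexo1, -4.61 for Srsf11, -4.91 for Luc7l, -7.66 for Rsrp1 and -9.00 for the gene model Gm42936, whose exon lost inclusion in Lpin1-/- liver (log2 ratio change -7.79, adjusted p of the difference 0.0145).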

How the results depend on the processing

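The 2382 genes called on refeeding in Lpin1-/- liver became 2496 with a pseudocount of 0.1, 1822 on rescaled values, 1712 with a filter at 5 RPKM, 1170 with a log2 change of at least 1 as well, and 1389 without fasted Lpin1-/- replicate 1 and refed Lpin1+/+ replicate 2, a choice made after seeing the data. The share of rises was 77.8% with no filter, 68.9% on rescaled values, and 59.2% when the rescaling used the tested genes only, also added after seeing the data (1730 calls). Leaving out single libraries gave 1122 to 3108. The 147 genes whose response differed became 83 with no filter, 321 rescaled, 306 rescaled over the tested genes, 52 without both libraries named above, and 30 to 191 without single libraries. The 2220 exon events became 3253 with 1 added to each count, 3214 with weights, 1058 in the 6 Lpin1-/- libraries alone, 1064 with a difference of at least 0.1 as well, and 1078 to 2783 without single libraries. The cause of these shifts was not tested, apart from smaller tests where samples or genes were removed.

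Replicate numbers did not pair the libraries, since the correlations of deviations between fasted and refed Lpin1-/- libraries of the same number were -0.441, -0.204 and -0.209. With the replicate block 1991 genes were called on refeeding and 81 for the difference of responses. No paired analysis was possible for exons because the count lists carry no numbers. Of 150 genes that the naming rule chose and that passed the threshold, 82 kept their call under all alternatives run, as did 12 of 28 for the difference, and none changed direction. With totals of reads unknown, low RPKM carry a counting error that could not be given.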
